A study of Mus musculus with 2 samples.

Results

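The genes of the major histocompatibility complex (MHC) and of antigen processing were measured by RNA-seq in regulatory T cells (Treg cells, the Foxp3+ subset of CD4+ T cells that restrains immune responses) of C57BL/6 mice aged 5 weeks. They were taken by symbol, namely every symbol of the count table that starts with H2- and 14 named genes of peptide supply, peptide loading and MHC transcription. This gave 57 of the 24081 genes of the table, and 36 of them had a mean of at least 20 reads over both libraries, the minimum used for a ratio, as did 10899 genes in all. The other 21 had fewer reads, and 17 of those were listed at 0 in both libraries.

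The WT library came from mice with the alleles Foxp3cre/wt and 1 floxed allele (fl/wt) of the targeted gene of the SUMO pathway, and the KO library from mice with Foxp3cre/wt and both alleles floxed (fl/fl). The Cre recombinase is thus in both groups, driven by Foxp3, and both were sorted from lymph nodes and spleen as CD4+ cells with YFP, the reporter of cells with Cre. Because 1 Foxp3 allele of these mice has no Cre, the animals may also hold Treg cells without Cre, which the sort leaves out. Each library pooled cells of 5 to 10 mice and each group is 1 library (11662867 gene reads in WT, 23789264 in KO), so there is no replicate, no test and no p-value, and every difference is between these 2 libraries. Both samples carry a wild-type genotype label, and the directions rest on their titles and the series' design text. In such bulk RNA, fewer cells of a type and less RNA per cell cannot be told apart.

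MHC class I molecules consist of a heavy chain and β2-microglobulin and show peptides from inside the cell to CD8 T cells. The peptides are cut by the proteasome, carried into the endoplasmic reticulum by the TAP transporter and fitted by tapasin. MHC class II molecules show peptides from endosomes to CD4 T cells, including Treg cells. Mouse T cells make class I but little or no class II, which is made mainly by B cells, dendritic cells and macrophages. The coactivator Nlrc5 drives class I genes in lymphocytes and its relative Ciita drives class II genes.

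The promoters of 5 genes on which the results turn are shown first. The 2 classical class I heavy chain genes have near-identical promoter stretches and differed unequally between the libraries. The class II chain genes H2-Aa and H2-Eb1 had close ratios. Whether promoter sequence bears on any ratio was not tested. Each promoter window is the 250 bases before the RefSeq start (build GRCm38.p6), read 5′ to 3′ on the strand of the gene. Capitals mark matches to letters known from MHC promoters, searched on both strands: the core of the interferon response element, a palindromic and a non-palindromic κB form, the X box, TTCNNNGAA (GAS), TGACGC (site α), TGACGTCA (CRE) and CCAAT. None of them overlapped another in these windows.
H2-K1: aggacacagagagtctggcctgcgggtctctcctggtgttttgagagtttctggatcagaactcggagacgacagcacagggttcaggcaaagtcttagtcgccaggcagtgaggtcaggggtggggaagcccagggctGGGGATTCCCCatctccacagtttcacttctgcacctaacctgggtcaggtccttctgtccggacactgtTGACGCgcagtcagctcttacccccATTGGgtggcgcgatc
H2-D1: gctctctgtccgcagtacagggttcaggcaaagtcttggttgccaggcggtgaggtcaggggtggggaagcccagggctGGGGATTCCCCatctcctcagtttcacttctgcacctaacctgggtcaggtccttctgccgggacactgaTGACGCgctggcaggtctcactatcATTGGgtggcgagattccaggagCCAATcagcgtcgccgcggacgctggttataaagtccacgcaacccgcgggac
B2m: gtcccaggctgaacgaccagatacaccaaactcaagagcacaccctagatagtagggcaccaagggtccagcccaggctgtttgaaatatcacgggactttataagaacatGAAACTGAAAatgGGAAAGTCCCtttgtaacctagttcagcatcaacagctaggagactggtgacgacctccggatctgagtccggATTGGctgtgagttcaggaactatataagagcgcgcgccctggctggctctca
H2-Aa: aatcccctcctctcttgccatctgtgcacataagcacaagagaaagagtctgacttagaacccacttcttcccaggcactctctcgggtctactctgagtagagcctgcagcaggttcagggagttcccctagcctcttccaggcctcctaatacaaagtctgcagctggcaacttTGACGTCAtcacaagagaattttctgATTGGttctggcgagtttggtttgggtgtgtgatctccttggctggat
H2-Eb1: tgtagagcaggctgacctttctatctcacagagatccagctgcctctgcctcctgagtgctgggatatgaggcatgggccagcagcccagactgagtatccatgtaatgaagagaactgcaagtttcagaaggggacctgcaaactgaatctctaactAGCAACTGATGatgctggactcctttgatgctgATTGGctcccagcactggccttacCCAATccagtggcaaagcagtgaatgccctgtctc

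They lie at chr17:34000348-34000597 (H2-K1, minus strand), chr17:35262844-35263093 (H2-D1, plus strand), chr2:122147437-122147686 (B2m, plus strand), chr17:34287824-34288073 (H2-Aa, minus strand) and chr17:34305617-34305866 (H2-Eb1, plus strand). In GENCODE, 1 transcript of H2-D1 starts before its window. Over the 177 aligned positions of the best local alignment, the H2-K1 and H2-D1 windows shared 161 bases (91.0%). The 2 windows are not in register, and the last CCAAT of the H2-D1 window lies past the point where the H2-K1 window ends. It can thus not be read as a difference between the 2 promoters. RefSeq windows were found for 39 of the 57 genes. The palindromic κB letters stood in the windows of H2-K1, H2-D1 and H2-Q6 and in 6 of all 27025 genes' windows (0.0222%). CCAAT was in 31 of the 39 windows, against 34.5% of all windows. The interferon response core was in 4 of the 39, those of B2m, Ctss, H2-T22 and H2-T23, against 3.04% of all, and TGACGC was in 3 (6.14% of all), TTCNNNGAA in 4 (7.18%), the X box in 3 (0.285%), and the other κB form (0.337%) and TGACGTCA (1.62%) in 1 each. These are letter matches and were not tested as binding sites. Fixed letters miss variant forms of an element, so a window without a match may still hold one. H2-K1 and H2-D1 can thus not be read as lacking an interferon response element, nor H2-Aa as lacking an X box.

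Both libraries held class I RNA at a very high level and class II RNA at a lower one. The 57 genes took 1.18% of the gene reads of the WT library and 1.25% of those of the KO library, and H2-K1 and B2m alone gave 60.7% and 61.0% of these. Per length, B2m ranked 2 of 10851 genes in both libraries, at 3273 RPKM (reads scaled to gene reads of the library and to exon length) in WT and 3698 in KO. H2-K1 ranked 8 and 5, at 1482 and 1510 RPKM. H2-D1 followed at 146 and 214 RPKM, rank 238 and 144. The invariant chain gene Cd74, at 311 RPKM in each library, was above all class II chains, of which H2-Eb1 had 49.7 and 38.0 RPKM and H2-Aa 34.1 and 26.6. Ciita lay near the bottom at 1.40 and 1.31 RPKM and Nlrc5 at 33.2 and 32.2. The lengths are those of GENCODE exons, and the sources used here do not name the annotation behind the authors' counts.

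**Figure D1:**
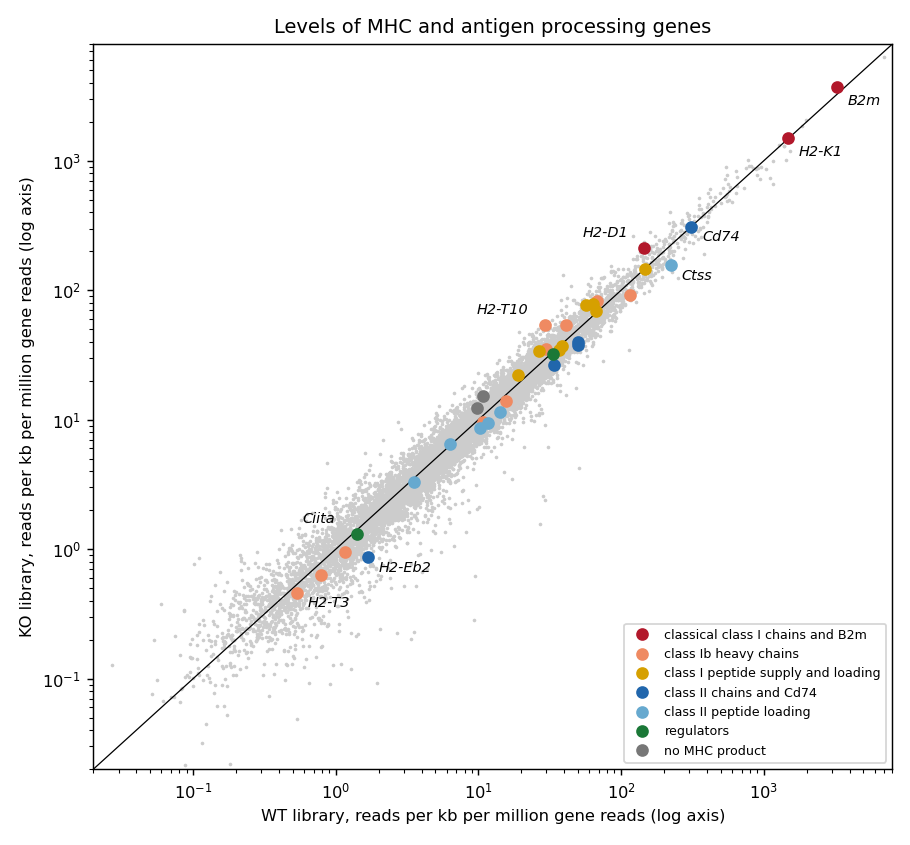
Level of each gene in the WT library (x axis) against the KO library (y axis), in RPKM on log axes. Coloured points are the 36 measured MHC and antigen processing genes by role, grey points all other genes with a mean of at least 20 reads, and the line marks equal levels. B2m and H2-K1 stand at the top of the range in both libraries, and H2-T10 and H2-D1 lie above the line.

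The 2 libraries differed little for most of these genes. Of the 36 measured, 2 (H2-T10 and H2-D1) reached 1.5-fold in favour of the KO library, against 7.43% of all measured genes, and 1 (H2-Eb2) reached it in favour of WT, against 5.51% of all. Over all genes these are 810 higher and 600 lower, but 623 and 758 when the libraries are scaled by total counts. The members' shares of 5.56% and 2.78% are no larger than those of all genes. None of the 36 was past 2-fold, against 1.59% of all genes higher and 2.08% lower. The median log2 ratio of KO over WT was 0.03, against 0.01 for all genes. The 21 measured class I, class Ib and class I supply genes had a median of 0.13, with 14 above 0 and 7 below (11 and 10 with the trend of the ratio on GC content and length removed), and class Ib alone had 4 above and 6 below. The 11 class II genes had a median of -0.24, with 2 above 0 and 9 below. Of all measured genes 5601 had ratios above 0 and 5298 below. An interval for counting error alone (exact binomial, 95%) lay above 1 for 16 of the 36 genes (29.1% of all genes), below 1 for 8 (25.6% of all) and held 1 for 12. Such intervals are narrow where reads are many, and the median of the mean read counts was 1508 for these genes and 552 for all. They hold no spread between mice, and reads are not independent molecules.

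**Figure D2:**
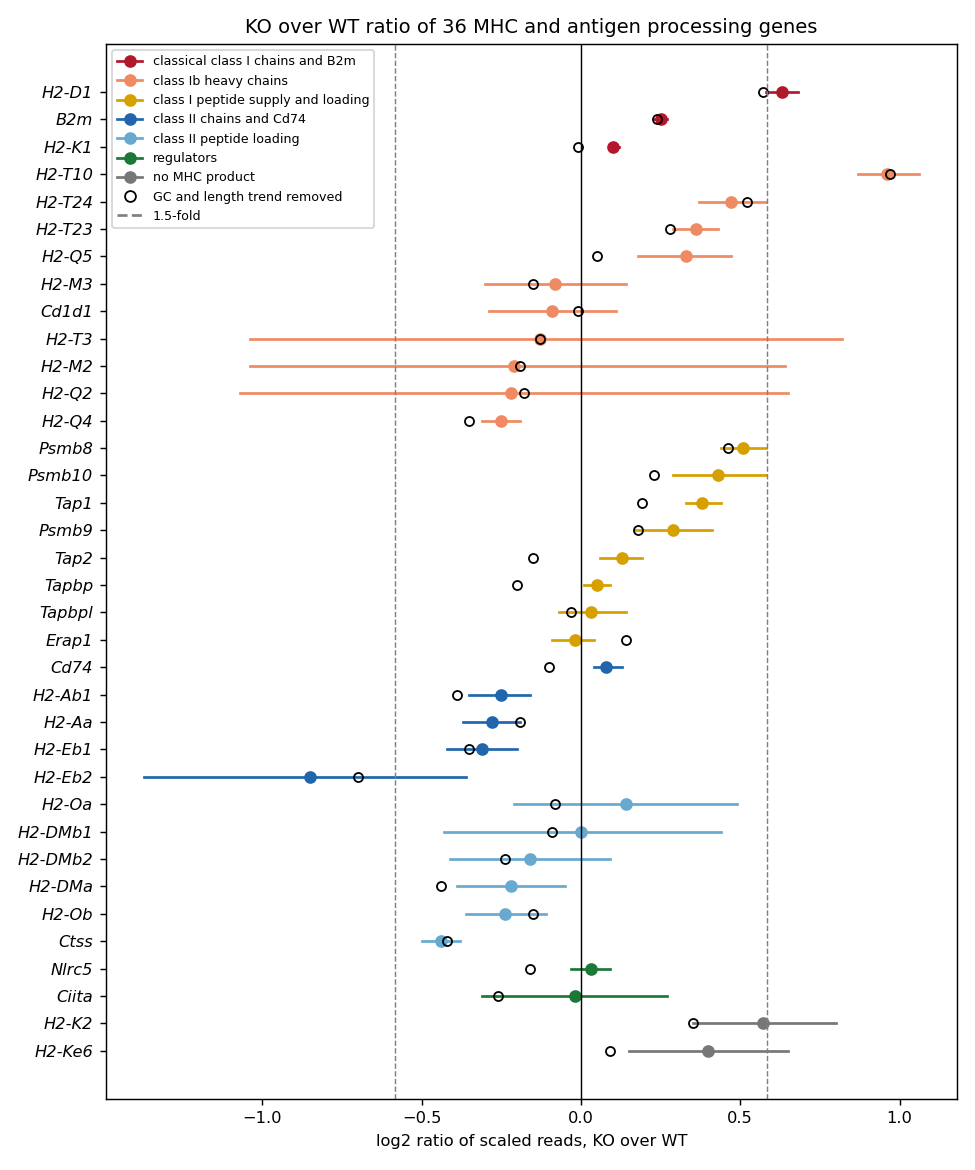
Log2 ratio of KO over WT (x axis) of the 36 measured genes, ordered by role. Filled points are the ratios as scaled with a pseudocount of 1, horizontal lines their 95% intervals for counting error, open circles the ratios after the GC and length trend was removed, and dashed lines mark 1.5-fold. H2-T10 and H2-D1 lie right of the upper line and H2-Eb2 left of the lower one, and H2-D1 falls just inside after the trend is removed.

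Among the classical class I genes the heavy chain H2-D1 (chromosome 17, 35262730 to 35267499) gave 4391 WT reads and 13155 KO reads, 1.55-fold higher in KO (log2 ratio 0.63, interval 0.58 to 0.68). The other classical heavy chain of this strain, H2-K1 (chromosome 17, 33996017 to 34000347), had 50784 and 105511 reads. That is only 1.07-fold higher (1.06 to 1.09) after scaling, which removes the 2.04-fold difference in depth between the libraries. There were 11.6 H2-K1 reads for each H2-D1 read in WT and 8.02 in KO. B2m, the light chain common to all class I molecules, had 32829 and 75664 reads (1.19-fold higher, 1.18 to 1.21). All 3 were thus higher in the KO library as scaled, H2-D1 the most. With the trend of the ratio on GC content and length removed, H2-D1 was at 0.57 on the log2 scale, just under 1.5-fold, B2m at 0.24 and H2-K1 at -0.01, the other side of 0. A heavy chain symbol known from other strains, H2-L, had 6 and 10 reads.

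The class Ib heavy chains, which are less variable and mostly present restricted sets of peptides, went both ways. Of 29 such symbols, 10 were measured, with 4 ratios above 0, 6 below and a median of -0.09, which turned to 0.33 when only genes with a mean of at least 100 reads were kept. H2-T10, whose product is a ligand of some γδ T cells, had the largest ratio of all 36 genes, with 1175 reads in WT and 4424 in KO (1.95-fold higher, 1.83 to 2.08; log2 ratio 0.96, and 0.97 with the GC trend removed). Its count is uncertain. GENCODE calls it a polymorphic pseudogene, its exons overlap BC023719 on the opposite strand, and 50.4% of its 50-base stretches also occur in other genes, most in H2-T22. H2-T24 had 1044 and 2804 reads (1.39-fold higher, 1.29 to 1.49). H2-T23, which encodes Qa-1, the ligand of CD94/NKG2 receptors, had 2292 and 5696 (1.29-fold higher, 1.22 to 1.35). H2-Q5, which GENCODE also calls a polymorphic pseudogene and which shares 36.4% of its stretches, had 551 and 1338 (1.26-fold higher, 1.14 to 1.39; log2 ratio 0.05 with the GC trend removed).

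In contrast, H2-Q4 had 3470 and 5656 reads, 1.19-fold lower in the KO library (log2 ratio -0.25). It shares 36.4% of its stretches with other genes, more with Gm11131 than with any other single gene. Gm11131 overlaps it on the opposite strand. H2-M3, which presents peptides with a formyl group, had 261 and 478 reads and Cd1d1, which presents lipids to NKT cells, 325 and 589. For both the interval held 1 (0.813 to 1.11 and 0.817 to 1.08 as KO over WT), so no difference was detectable at this depth. H2-T3, which encodes the TL antigen, H2-M2 and H2-Q2 had only 17 to 21 reads in WT and 30 to 35 in KO, and their intervals spanned 1 widely. H2-Q1 had 8 and 9 reads, H2-Q10 had 0 and 6 and H2-Bl 0 and 4, too few for a ratio.

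Several class I symbols were listed at 0, and for some of them the 0 cannot be read as a level. All 10 unread H2-M genes (H2-M1, H2-M5, H2-M9, H2-M11 and the 6 H2-M10 genes) and H2-Ea-ps were at 0 in both libraries, which allows up to 3 reads, or 0.257 CPM (counts scaled to the gene reads of the library) in WT and 0.126 CPM in KO. H2-Ea-ps is the E α chain gene, which C57BL/6 mice carry in an inactive form. H2-Q6, H2-Q7, H2-Q8, H2-Q9, H2-T9 and H2-T22 were also at 0 in both libraries. Of these, GENCODE has H2-Q6, H2-Q7 and H2-T22, and 35.0%, 26.5% and 53.5% of their 50-base stretches occur in other annotated genes. H2-Q8, H2-Q9 and H2-T9 have no GENCODE entry. Stretches shared with them were thus not counted, and the 3 shares may be too low. H2-T10 and H2-Q4 have shares of 50.4% and 36.4% and had 1175 and 3470 reads in WT, which cannot show how other symbols were counted. Sharing was measured on transcripts only, either strand, and the sources used here do not state the read length. How the counting treated these 6 symbols was not tested, and no level is given for them. H2-Q7 and H2-Q9 encode Qa-2, a class Ib molecule known in T cells of this strain.

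**Figure D3:**
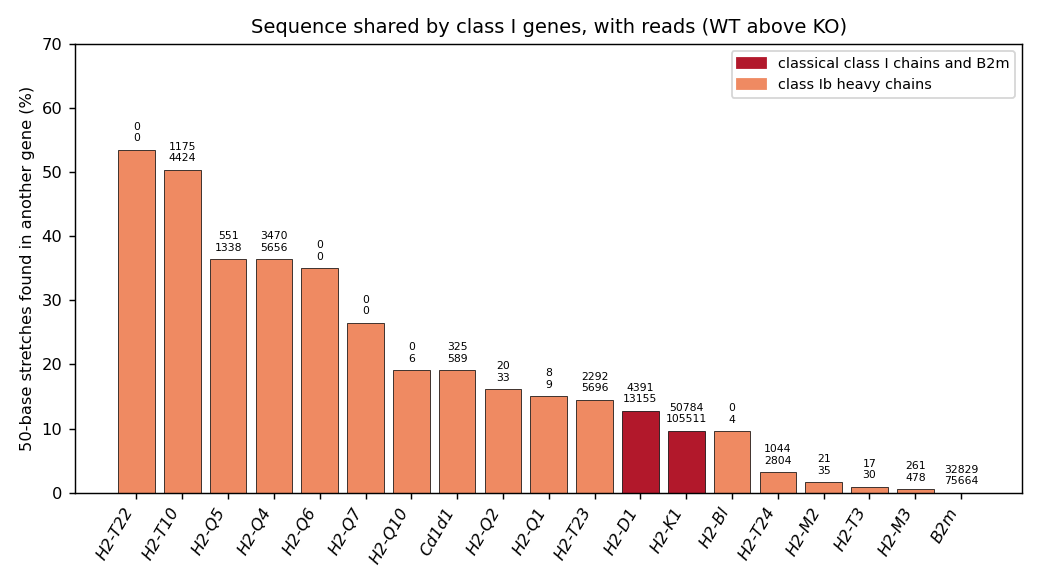
Share of the 50-base stretches of each class I gene's transcripts that also occur in another gene's transcripts (y axis, percent). The numbers over each bar are its reads in the WT library (upper) and the KO library (lower), and H2-M1, H2-M5, H2-M9, H2-M11 and the H2-M10 genes are left out. H2-T22 and H2-T10 have the highest shares, and H2-T22, H2-Q6 and H2-Q7 have no reads in either library.

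Genes that make and load class I peptides were slightly higher in the KO library or differed little. All 8 were measured and none was past 1.5-fold. The median was 0.21, and 7 ratios were above 0 (5 with the GC trend removed). The immunoproteasome is the form of the proteasome with the 3 exchanged catalytic subunits Psmb8, Psmb9 and Psmb10. Psmb8 had 2244 reads in WT and 6171 in KO (1.42-fold higher, 1.35 to 1.49), Psmb10 had 529 and 1379 (1.35-fold, 1.22 to 1.49) and Psmb9 had 814 and 1926 (1.22-fold, 1.13 to 1.33). All 3 kept a ratio above 0 with the GC trend removed, at 0.46, 0.23 and 0.18 on the log2 scale.

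The 2 subunits of the peptide transporter differed unequally. Tap1 had 4055 and 10226 reads, 1.30-fold higher (1.26 to 1.35; 0.19 on the log2 scale with the GC trend removed). Tap2 had 2962 and 6260, 1.09-fold higher (1.05 to 1.14), and lay at -0.15 with the trend removed. Tapasin (Tapbp), which holds class I molecules at the transporter, had 6267 and 12548 reads (1.04-fold higher, 1.00 to 1.07) and its relative Tapbpl, a second peptide editor, had 1057 and 2093 (0.951 to 1.10 as KO over WT). Erap1, the peptidase that trims peptides in the endoplasmic reticulum, had 3139 and 5976 reads (0.943 to 1.03). The last 2 intervals held 1, and the ratios of Tapbp, Tapbpl and Erap1 changed sign with the GC trend removed (-0.20, -0.03 and 0.14). Exons of Tap1 and Psmb9 overlap each other on opposite strands, those of Erap1 overlap Cast, and those of Psmb8 and Tap2 both overlap Gm20496 and those of Tap2 also Gm15821. Tapbp overlaps Gm19412 on the opposite strand and Zbtb22 on its own strand, by up to 904 bases, and shares 23.2% of its 50-base stretches with other genes. Reads over such opposite-strand overlaps cannot be told apart if counting ignored strand, which the sources used here do not say. The counter kept reads on several genes in a category of their own, so such reads may be missing from both genes.

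The class II chains were lower in the KO library by small amounts, apart from Cd74. H2-Ab1, the β chain of the I-A molecule, had 1498 reads in WT and 2433 in KO (1.19-fold lower; KO over WT 0.840, 0.787 to 0.896). H2-Aa, the α chain of I-A, had 1509 and 2403 (1.21-fold lower; 0.824, 0.772 to 0.879). H2-Eb1, the β chain of the I-E molecule, had 1127 and 1756 (1.24-fold lower; 0.806, 0.747 to 0.869). The 3 ratios were thus within a narrow range of each other, -0.25 to -0.31 on the log2 scale, and H2-Aa and H2-Ab1 had nearly equal reads in each library (1.01 and 0.988 H2-Aa reads per H2-Ab1 read). H2-Eb2, another E β chain gene, gave few reads, 66 and 70, for a KO over WT ratio of 0.549 (0.386 to 0.780), or 1.82-fold lower. Cd74, whose product guards the peptide groove of class II molecules until they reach endosomes, had 6082 and 12437 reads and was 1.06-fold higher (1.03 to 1.09), so that Cd74 reads per H2-Ab1 read went from 4.06 to 5.11. With the GC trend removed all 5 had ratios below 0, Cd74 at -0.10.

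The genes of class II peptide loading leaned the same way, with a median of -0.19 over 6 genes and none past 1.5-fold. Ctss, the cathepsin that cuts the invariant chain and also works in other endosomes, had 3541 reads in WT and 5055 in KO (1.35-fold lower; KO over WT 0.738, 0.707 to 0.771), which put its ratio at percentile 9.30 of all measured genes. H2-Ob, a chain of the DO molecule that restrains peptide exchange, had 892 and 1465 (1.18-fold lower; 0.849, 0.781 to 0.924), and H2-DMa, a chain of the DM molecule that speeds it, 469 and 779 (1.16-fold lower; 0.859, 0.765 to 0.965). H2-DMb2 had 208 and 360 reads, H2-DMb1 69 and 133, and H2-Oa, the partner of H2-Ob, 103 and 219. The intervals of the last 3 held 1, and their log2 ratios were -0.16, 0.00 and 0.14. H2-DMb1 and H2-DMb2 share 22.7% and 25.9% of their 50-base stretches with other genes, most with each other.

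As scaled, the regulators differed by less than counting error. Nlrc5, the class I coactivator, had 3291 and 6500 reads (1.02-fold, 0.979 to 1.07) and Ciita, the class II coactivator, 156 and 297 (0.985, 0.808 to 1.20). Neither the class I nor the class II coactivator RNA thus differed detectably between the libraries as scaled at this depth. With the GC trend removed Nlrc5 was at -0.16 and Ciita at -0.26 on the log2 scale. That put Nlrc5 outside its interval for counting error as scaled (-0.03 to 0.09) and left Ciita inside its own (-0.31 to 0.27). Exons of Ciita overlap Dexi on the opposite strand. Of the symbols without an MHC product, the pseudogene H2-K2 had 215 and 619 reads (1.49-fold higher, 1.27 to 1.75) and H2-Ke6, a steroid dehydrogenase gene of the region, 188 and 479 (1.32-fold higher, 1.11 to 1.57). With the GC trend removed the log2 ratio of H2-K2 went from 0.57 to 0.35 and that of H2-Ke6 from 0.40 to 0.09. Exons of H2-Ke6 overlap Gm20427 on the same strand, and 70.5% of the 50-base stretches of H2-Ke6 also occur in that gene.

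Neighbouring genes of the MHC lay on different sides of 0. Of the 36 measured genes 27 lie on chromosome 17, and from H2-K1 to H2-Ea-ps (33996017 to 34344645 in mm10) there are 20 measured genes, 15 of them of this set. Psmb9, Tap1, Psmb8 and Tap2 stand next to each other in the class II region and all 4 had ratios above 0 as scaled, from 0.13 to 0.51, Tap2 below 0 with the GC trend removed. The 9 class II genes on both sides of them had 8 ratios below 0, of which that of H2-DMb1 rounds to 0.00, and H2-Oa was above 0 at 0.14 (-0.08 with the GC trend removed). H2-DMa overlaps Brd2 and H2-Oa overlaps BC051537 on the opposite strand. The 5 other genes of the stretch, Ring1, Slc39a7, Rxrb, Col11a2 and Brd2, had ratios of 0.19 to 0.96, and of -0.14 to 0.31 with the GC trend removed.

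**Figure D4:**
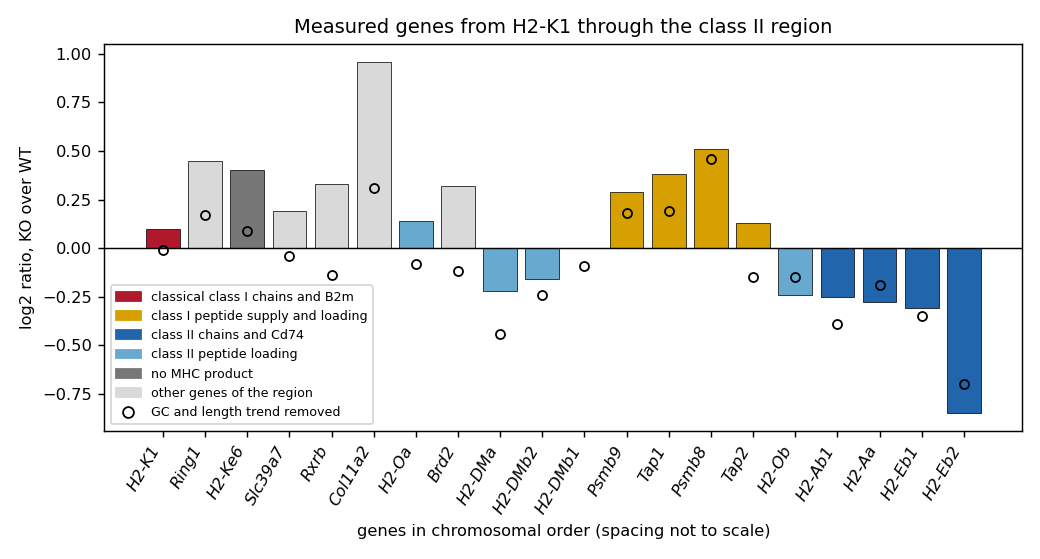
Log2 ratio of KO over WT (y axis) of the 20 measured genes from H2-K1 to H2-Eb2, in their order on chromosome 17 and with spacing not to scale. Bars are ratios as scaled, coloured by role, and open circles the ratios with the GC and length trend removed. Psmb9, Tap1, Psmb8 and Tap2 form a block of bars above 0 between class II genes whose bars lie mostly below 0.

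Markers of cells that make class II were present in both libraries and differed between them. All 10 B cell markers of a fixed list had reads, with a sum of 167 CPM in WT and 125 CPM in KO (KO over WT 0.788, 0.744 to 0.835), and 6 of the 10 had ratios below 0. Cd79b had 390 and 366 reads (0.485, 0.420 to 0.561) and Ms4a1, which encodes CD20, 315 and 372 (0.611, 0.524 to 0.712), while Cd79a had 432 and 915 (1.10, 0.976 to 1.23). All 11 monocyte and macrophage markers had reads too, at 739 and 661 CPM in sum (0.944, 0.919 to 0.969), 6 of the 11 with ratios below 0. The complement gene C1qb had 1189 and 2474 reads and the growth factor receptor gene Csf1r 3192 and 5440 (0.881, 0.844 to 0.921). The 10 dendritic cell markers summed to 59.6 and 72.2 CPM (1.28, 1.17 to 1.40), most of it from Bst2, which other cells also express.

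H2-Aa, H2-Ab1 and H2-Eb1 together had 354 CPM in WT and 277 CPM in KO (0.825, 0.793 to 0.858). For each B cell marker read there were 2.12 reads of these 3 chains in WT and 2.22 in KO, and for each macrophage marker read 0.480 and 0.419. For each dendritic cell marker read there were 5.95 in WT and 3.84 in KO. The part of B cells, macrophages and dendritic cells in the class II and Ctss values was not tested. The 8 Treg markers had 5170 CPM in WT and 6381 CPM in KO in sum and went both ways, with 6 ratios above 0 and 2 below and KO over WT from 0.621 to 2.36. Plasma cell markers summed to 130 and 84.7 CPM, most of it from Irf4, which Treg cells also express, and Tnfrsf17 was at 0. Marker sums for CD8 T cells (34.5 and 40.4 CPM) and NK cells (6.60 and 7.23 CPM) were low, with Klra4 and Klra8 at 0, and of 7 stromal and endothelial markers Pdpn, Lyve1 and Ccl21a were at 0 and Pecam1, which leukocytes also express, gave nearly all reads.

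**Figure D5:**
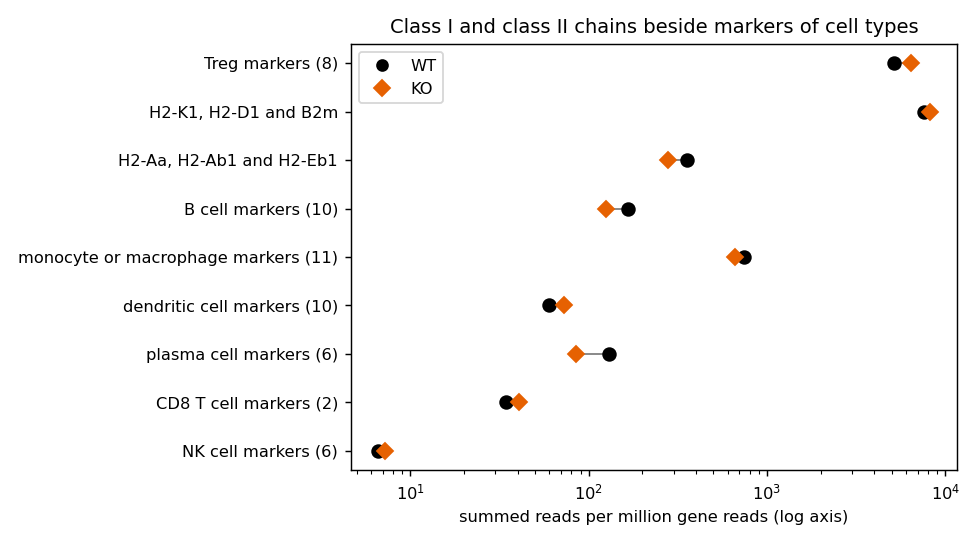
Summed CPM (x axis, log scale) of class I chains, class II chains and marker lists in the WT library (black circles) and the KO library (orange diamonds), with the number of genes of each list in parentheses. Class II chains stand at 354 in WT and 277 in KO, between the B cell markers at 167 and 125 and the macrophage markers at 739 and 661.

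Other genes of the same pathways differed little as groups, with a few larger ratios. Of 20 further genes of class I peptide supply and loading 1 passed 1.5-fold upward (7.43% of all measured genes did) and 0 downward (5.51% of all). The median was -0.05. Psmb5, the standard proteasome subunit that Psmb8 replaces, had 147 reads in WT and 616 in KO (2.17-fold higher, 1.81 to 2.61; log2 ratio 0.78 with the GC trend removed). There were 15.3 Psmb8 reads per Psmb5 read in WT and 10.0 in KO, while Psmb9 per Psmb6 read went from 1.94 to 2.18 and Psmb10 per Psmb7 read from 0.785 to 0.871. Pdia3, the oxidoreductase ERp57 of the loading complex, had a log2 ratio of -0.42, the proteasome activator Psme1 0.33 and the chaperone Erp44 -0.31.

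Of 11 further genes of the class II pathway 1 was at least 1.5-fold higher, 2 were lower and 8 lay between, with a median of -0.12, where 7.43% of all measured genes were higher and 5.51% lower. With total counts (623 of all 10899 genes higher) or with the GC trend removed (4.27% of all higher) 0 of the 11 were higher. Cd83, whose product stabilises class II molecules on the surface, had 1113 reads in WT and 1014 in KO (KO over WT 0.471, 0.432 to 0.513). Ifi30, a thiol reductase of endosomes that unfolds antigens, had 410 and 431 (0.544, 0.474 to 0.624). March8 had 43 and 59 reads (0.710, 0.471 to 1.08), and its relative March1, a ligase that removes class II from the surface, 123 and 182 (0.765, 0.605 to 0.970). The proton channel gene Hvcn1 had 753 and 2283 (1.57-fold higher, 1.44 to 1.70; 0.49 on the log2 scale with the GC trend removed, under 1.5-fold).

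Among 18 promoter factors and interferon-γ signalling genes the median was 0.02, and 1 passed 1.5-fold, upward, against 7.43% of all measured genes. Socs1, the inhibitor of interferon-γ receptor signalling, had 187 and 680 reads (1.88-fold higher, 1.60 to 2.22; log2 ratio 0.60 with the GC trend removed). The repressor or activator Irf2 had a log2 ratio of 0.45, the NF-Y subunit Nfyb -0.44 and the receptor chain Ifngr2 0.40. The transcription factor Irf1 differed little, at 2037 and 4071 reads (1.03-fold, 0.980 to 1.09). The X box factors Rfx5, Rfxap and Rfxank had ratios of -0.07, -0.01 and -0.01. A further 6 T cell genes have products that bind MHC or signal with such receptors. With total counts 2 of them passed 1.5-fold downward, against 758 of all 10899 measured genes. As scaled 1 passed it, downward, against 5.51% of all. The median was 0.14 and the mean -0.17, which differ in sign. Lag3, an inhibitory class II receptor, had 605 and 492 reads (0.421, 0.373 to 0.474), and the coreceptor Cd4 23224 and 54375 (1.21-fold higher, 1.19 to 1.23). The CD3 chains Cd3g and Cd3e had log2 ratios of -0.53 and 0.18.

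The ratio of KO over WT moved with GC content over all genes, a Spearman correlation across 10851 genes, which are not independent, of 0.41. The GC content of class I and class II genes was similar, with medians of 53.3% and 53.0%, against 49.1% for all. With the trend on GC content and length removed, 5349 of all genes had ratios above 0 and 5502 below. The class I, class Ib and supply genes then had a median of 0.05, with 11 above 0 and 10 below. All 11 class II genes lay below 0, with a median of -0.24. At 1.5-fold 1 gene was then higher (H2-T10; 4.27% of all genes) and 1 lower (H2-Eb2; 5.63% of all), and none passed 2-fold (0.986% of all genes higher, 2.24% lower).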

How the data were processed

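The authors deposited 1 table of raw read counts per gene symbol for both libraries. The aligner TopHat2 2.0.3, the counter HTSeq and the build mm10 are named per the submitters' processing notes; the sources used here give neither the annotation nor the strand setting or read length. Per the labels' protocols, mRNA was captured on beads from Trizol RNA, and libraries were made with a kit that starts from 1 ng of DNA. The 5 rows of the counter's own categories were left out of library sizes, among them reads aligned to several places (15.6% of counted entries in WT, 15.0% in KO; reads of genes with near-identical copies may be among them), reads outside genes (6.26% and 6.81%) and reads on several genes (1.53% and 1.57%). The counts were scaled with edgeR 4.0.16 (TMM) in R 4.3.3 and given a pseudocount of 1 for log2 ratios; folds and their exact binomial 95% intervals use none. DESeq2 1.42.0 gave size factors as an alternative, and others were total counts, pseudocounts of 5 and 0.5, other minimum counts, and a loess trend (span 0.3) on GC content and exon length. GENCODE M21 (mm10) matched 98.5% of symbols and 53 of the 57 genes. The ratio and the trend were tested on simulated data. The members, gene lists and naming rule (every gene with a mean of at least 20 reads, up to 4 genes with the largest ratios of each pathway list) were chosen with earlier results of these data known. March1, Irf1, the Rfx genes and the marker genes named singly were chosen after their values were seen. The targeted gene is not reported here. Python 3.11.15 with pandas 2.3.3, scipy 1.17.1 and matplotlib 3.10.9 was used.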

Additional observations from a re-analysis of the deposited data

How the results depend on the processing

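No paired analysis was possible because each group is 1 library. With DESeq2 size factors and pseudocounts of 5 and 0.5 the counts of called genes stayed within 1.5 times of those reported, and the medians moved by less than 0.1. With total counts, which move the median of all genes to -0.06, 1 gene was at least 1.5-fold higher, both over all members and within class I, in place of 2, because H2-D1 fell to 0.55. With the GC and length trend removed this count was also 1 for both, and the median of all members was -0.10. With no minimum count 4 members were higher and 2 lower, and within class I 4 and 1. The genes that this adds to the called ones have at most 9 reads in a library. The share over all genes was not computed with no minimum count or with a minimum mean of 100 reads, so these counts have no background. With a minimum mean of 100 reads no member was lower (0 overall and 0 in class II), the class I median was 0.27 and the class Ib median 0.33 in place of -0.09, since the genes with few reads had ratios below 0. At 2-fold 0 members were higher and 0 lower. Restricted to the 21 members with under 10% of their 50-base stretches in other genes, an alternative chosen after seeing the data, 0 were higher. This limit itself removes H2-T10 (50.4%) and H2-D1 (12.8%) and keeps H2-K1 (9.63%). It changes no ratio, so it does not check the ratios of H2-T10 and H2-D1. The signs of H2-Oa, Tap2, H2-K1, Cd74, Tapbp, Tapbpl, Nlrc5 and Erap1 changed under at least 1 alternative, and their reported ratios lie between -0.02 and 0.14. With 1 library per group no alternative shows the spread between mice.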
